A study of Rattus norvegicus with 6 samples.

Results

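Accessible chromatin after FSK was compared directly with accessible chromatin after Ex-4 in INS-1 cells carrying Med14 S983A. ATAC-seq uses the Tn5 transposase, which inserts adapters where DNA is not packed away, so that read density marks open chromatin. The comparison rests on 2 of the 6 libraries of the series, Med14 S983A FSK and Med14 S983A Ex-4, and no untreated (CON) library enters it. INS-1 cells come from a rat insulinoma and serve as a model of beta cells. In Med14 S983A cells the serine at that position of Med14 was replaced by alanine through genome editing, and clones were grown from single sorted cells. The study describes 2 independently made mutant lines, and the sources do not say which of them gave these libraries. Cells were moved to serum-free medium and then received 10 µM FSK or 10 nM Ex-4 for 1 h, so each agent was present at 1 dose and 1 time. The doses differ, and the cAMP that each raised was not measured in these data. The other libraries were Med14 S983A CON and the WT CON, WT Ex-4 and WT FSK libraries of the unedited line. Of 220487 merged peaks outside the mitochondrial chromosome, 163159 were called with FSK or Ex-4 in Med14 S983A cells. With 1 library per condition there is no replicate error, no p-value is given, and every difference describes these libraries.

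FSK activates adenylate cyclase directly, whereas Ex-4 is an agonist of the GLP-1 receptor, which couples to the same enzyme through a G protein. Both raise cAMP in beta cells, which activates the kinase PKA and, through it, the transcription factor CREB, whose early targets include AP-1 factors. Med14 is the scaffold subunit of Mediator, the complex that links enhancer-bound factors to RNA polymerase II, and S983 lies in a PKA site that the S983A change removes. The direct comparison asks where the receptor agonist and the cyclase activator left different accessibility when that site could not be phosphorylated.

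The deposited values are FPKM over merged peaks, that is, reads scaled for peak length and for the library's total of reads in its own peaks. Where a library did not call a merged peak the value is 0, and such peaks are described here as listed at 0. The exceptions were 126 peaks with FSK and 116 with Ex-4 that had a value without a call. Reads in peaks, recovered from the steps between low FPKM values, came to 163000000 with FSK and 147100000 with Ex-4, to 4 significant digits. The range over the 6 libraries was 134300000 to 251100000, the lowest being Med14 S983A CON and the highest WT FSK. Med14 S983A FSK had 144169 called peaks and Med14 S983A Ex-4 had 129420, so the deeper library of the pair also had the longer list. Med14 S983A CON, the shallowest library, had 119024. How much depth added to these lists, or to the peaks listed at 0, was not tested. Differences are given as log2(FPKM + 0.5) with FSK minus Ex-4, so that positive values mean more signal with FSK, and the pseudocount understates changes of weak peaks.

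Most open regions carried nearly the same signal after either agent, and a minority was at least 2-fold stronger after 1 of them. Tested peaks were the 146906 whose FPKM averaged 1 or more over the 6 libraries. Among them, 18247 (12.4%) were at least 2-fold higher with FSK. Another 11701 (7.96%) were at least 2-fold higher with Ex-4. FSK was the stronger side in 60.9% of the peaks that passed 2-fold. That split depended on scaling, since it was 47.8% after quantile normalization of both libraries, and on the choice of peaks, since it was 39.5% among peaks called in all 6 libraries. Most of these differences came from calls. Of the FSK-higher peaks 13863 were listed at 0 with Ex-4, and of the Ex-4-higher peaks 9296 were listed at 0 with FSK.

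A total of 106517 peaks were called in both stimulated Med14 S983A libraries, and these carry no such zeros. Their median difference was -0.07, and 90% of them lay between -0.80 and 0.91. In this set 4384 peaks (4.12%) were at least 2-fold higher with FSK and 2405 (2.26%) with Ex-4. The FSK side also reached further, with 361 peaks past 4-fold against 10 on the Ex-4 side. These peaks had a median of 462 reads with FSK and 432 with Ex-4. A peak had to pass the peak caller in both libraries to enter this set, which limits how large a difference can appear.

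**Figure D1:**
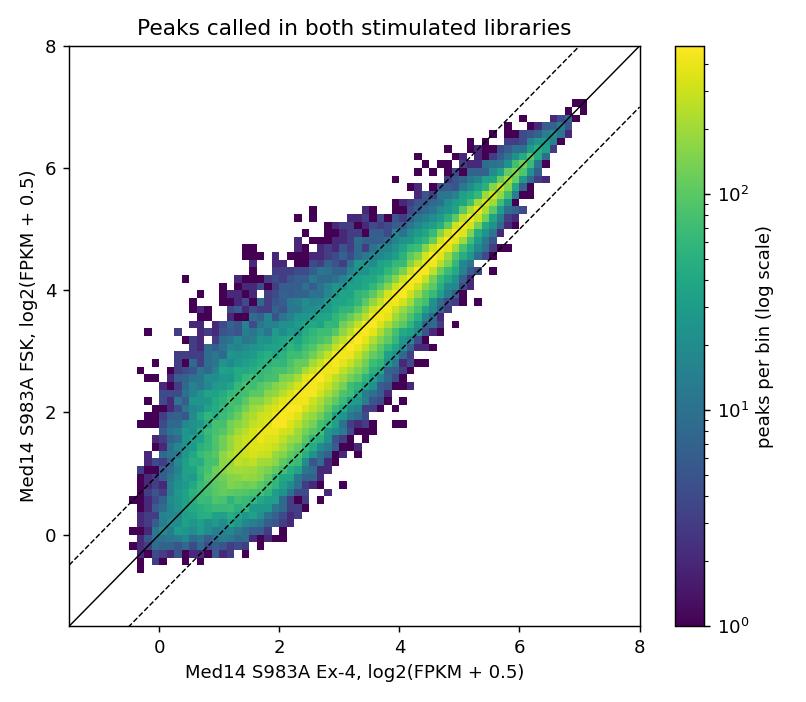
Signal of the 106517 peaks called in both stimulated Med14 S983A libraries, with Ex-4 on the x axis and FSK on the y axis, both as log2(FPKM + 0.5). Colour gives the number of peaks per bin on a log scale, the solid line marks equal signal and the dashed lines 2-fold. The cloud bulges above the upper dashed line at low Ex-4 signal, where the 4384 FSK-higher peaks lie, and narrows toward high signal.

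The picture is lopsided at low Ex-4 signal: peaks that were weak with Ex-4 spread far upward with FSK, while the lower edge stays nearer to its 2-fold line.

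Most peaks stronger with FSK were not called in untreated mutant cells. Med14 S983A CON was also the shallowest of the 6 libraries, and the part of depth in its missing calls was not tested. Over all 18247 of them the medians were 4.32 FPKM with FSK and 0 with Ex-4 and in Med14 S983A CON, which called 21.5%. The order CON, Ex-4, FSK from lowest to highest held in 22.2%, since most were listed at 0 with Ex-4. The remaining 4384 FSK-higher peaks were called in both libraries, so an Ex-4 value above 0 is part of their choice. In them the median signal was 6.69 FPKM with FSK, 2.14 FPKM with Ex-4 and 0 in Med14 S983A CON. In CON, 52.3% of them were listed at 0. The order CON, Ex-4, FSK held in 4040 of them (92.2%), compared with 26.5% of all peaks called in both. The step from Ex-4 to FSK in that order was fixed by the choice of the 4384 peaks. It was not fixed in all peaks called in both, so part of the gap between the shares is built in. In the 1379 FSK-higher peaks called in all 6 libraries, CON had a median of 2.06 FPKM, Ex-4 3.27 FPKM and FSK 8.64 FPKM. Ex-4 was within 2-fold of CON in 84.8% of these, against 99.3% of all peaks called in all 6. In the 4384 peaks the share was 40.8%, against 91.6% of all peaks called in both. The WT libraries, which are not part of the contrast, had medians of 0 FPKM in CON, 1.19 FPKM with Ex-4 and 7.56 FPKM with FSK over the same 4384 peaks.

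Among peaks called with both agents, the shares differed by whether untreated mutant cells had the call. The part of the CON library's lower depth in that call was not tested. Of the 98266 peaks called with both agents and in Med14 S983A CON, 2.12% were FSK-higher and 2.44% were Ex-4-higher. Of the 8251 called with both agents but not in CON, 27.8% were FSK-higher and 10 peaks, 0.121%, were Ex-4-higher. The median difference was -0.09 in the former group and 0.52 in the latter. The peaks not called in CON were shorter, with a median of 273 bp against 543 bp, and weaker. With a mean of 2 to 4 FPKM over the 2 libraries, 27.4% of 3892 peaks not called in CON were FSK-higher. Of 22454 peaks called in CON the share was 2.27%. With a mean of 4 to 8 FPKM the shares were 44.5% of 1647 and 3.34% of 23228. At a given mean of these 2 libraries, an FSK-higher peak has a lower Ex-4 value. CON was within 2-fold of Ex-4 in 91.6% of peaks called in both. The matching thus does not separate a low level from a missing CON call, and the part of level was not tested.

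Peaks stronger with Ex-4 and called in both libraries were mostly open in untreated cells, near the CON level with Ex-4 and lower with FSK. Med14 S983A CON called 99.6% of them, against 92.3% of all peaks called in both. Over all 11701 Ex-4-higher peaks this was less clear. CON called 77.5% of these, near its 74.2% of all tested peaks. Ex-4 was within 2-fold of CON in 77.0% of the 11701, below the 89.3% of all tested peaks. In the 2405 Ex-4-higher peaks called in both libraries the median signal was 4.67 FPKM in Med14 S983A CON, 4.39 FPKM with Ex-4 and 1.63 FPKM with FSK. CON was above FSK in 2392 of them (99.5%), and Ex-4 was within 2-fold of CON in 2386 (99.2%). Over all peaks called in both libraries, 57.4% had CON above FSK and 91.6% had Ex-4 within 2-fold of CON. The choice of the 2405 peaks put FSK at least 2-fold below Ex-4. A CON level above FSK therefore nearly follows from that choice wherever Ex-4 was close to CON. The WT medians over these peaks were 5.98 FPKM in CON, 5.49 FPKM with Ex-4 and 2.88 FPKM with FSK. An Ex-4-higher call in this set thus seldom went with signal that Ex-4 raised by 2-fold over CON.

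Peaks that only 1 of the 2 libraries called differed in a like way in their calls elsewhere. Among tested peaks, 13954 were called with FSK and not with Ex-4, and 9428 with Ex-4 and not with FSK. The former had a median of 3.78 FPKM and 129 reads with FSK, and the latter 2.24 FPKM and 83.0 reads with Ex-4. Together they were small, holding 1.61% of the FSK reads and 0.705% of the Ex-4 reads. Med14 S983A CON called 13.3% of the FSK-only peaks and WT Ex-4 called 27.0%, against 74.2% and 81.2% of all tested peaks. WT FSK called 91.3% of them, which is the share it called of all tested peaks, 91.4%. The most frequent pattern, in 8266 of them (59.2%), was a call in WT FSK and in none of the other 3 libraries. Tested peaks averaged at least 1 FPKM over 6 libraries, so a weak FSK-only peak passed more easily with a second call. The part of that filter in the WT FSK share and in this pattern was not tested. Of the Ex-4-only peaks, Med14 S983A CON called 71.3% and WT Ex-4 80.6%, both near their shares of all tested peaks, while WT FSK called 71.1%, below its share. Their most frequent pattern, in 4058 (43.0%), was a call in all 4 other libraries, with FSK in mutant cells as the lone exception. FSK-only peaks were thus mostly absent from the untreated lists and from that of WT Ex-4. Their absence from the mutant Ex-4 list is their definition. Ex-4-only peaks were on the untreated mutant list at about its share of all tested peaks.

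Few tested peaks were particular to a single library. Only 747 FSK-only and 214 Ex-4-only peaks were called in no other library. Without the filter on low signal there were 33742 FSK-only and 18993 Ex-4-only peaks, of which 10917 and 5593 were called in no other library. That filter uses the mean of 6 libraries, so a weak peak passed it more easily when other libraries had it too.

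Changed peaks were commonest among weak peaks, and the FSK side leaned further to the weak end. Level was taken as the mean FPKM of the 4 libraries outside the contrast, and peaks called in both libraries were divided into quartiles of it. The FSK-higher share was 9.30%, 4.32%, 2.37% and 0.473% from the weakest quartile to the strongest. The Ex-4-higher share was 2.29%, 3.62%, 2.44% and 0.683%, with its highest value in the second quartile. Length gave a hump rather than a slope. From the shortest quartile to the longest, 4.95%, 6.75%, 3.39% and 1.38% were FSK-higher and 1.25%, 3.34%, 3.32% and 1.12% were Ex-4-higher. FSK-higher peaks had a median length of 406.5 bp and Ex-4-higher peaks one of 513 bp, while all peaks called in both had 517 bp.

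Length and level move together, and the length pattern changed with level. In the weakest quartile the longer peaks, above 330 bp, were FSK-higher in 11.2% and the shorter ones in 7.41%. In the third quartile the order was the other way, with 1.77% of peaks above 571 bp and 2.96% of the shorter ones. Distance to the nearest merged peak made less difference: from the closest quartile to the most isolated, 4.21%, 4.66%, 4.35% and 3.25% were FSK-higher and 2.17%, 1.97%, 2.01% and 2.89% were Ex-4-higher.

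**Figure D2:**
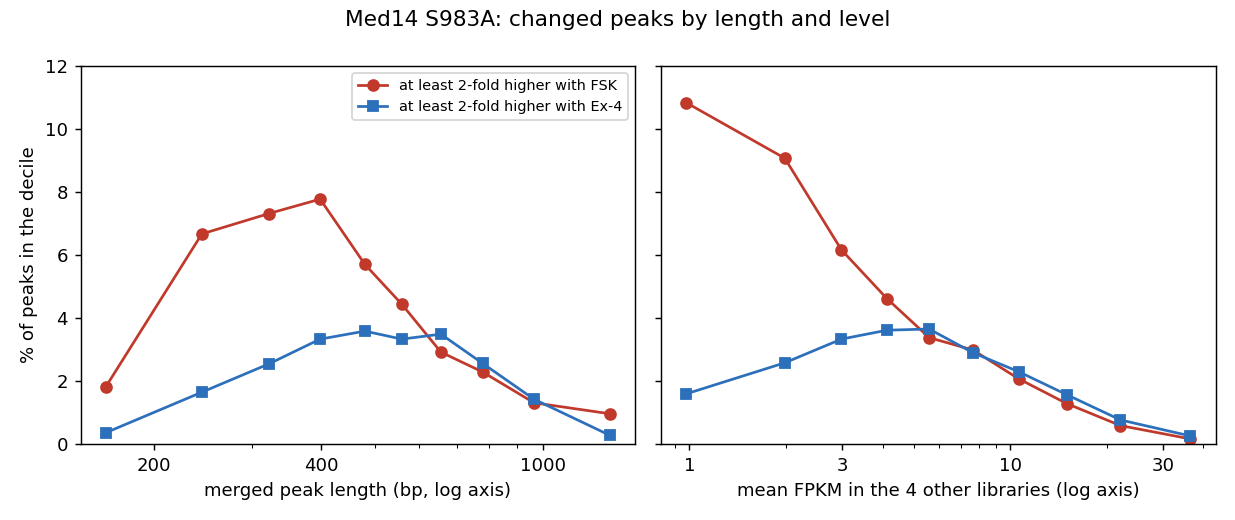
Share of peaks at least 2-fold higher with FSK (red circles) or with Ex-4 (blue squares) in Med14 S983A cells, in deciles of merged peak length (left) and of mean FPKM in the 4 other libraries (right), each point placed at its decile's median on a log axis. Over level the FSK share fell from 10.8% to 0.169%, whereas the Ex-4 share went from 1.60% through 3.65% to 0.263%.

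Over all tested peaks, which include those listed at 0, short peaks dominated both sides. The FSK-higher share was 24.6% in the shortest length quartile and 2.05% in the longest, and the Ex-4-higher share was 11.95% and 2.40%. In the shortest quartile 65.3% of peaks were called with FSK and 53.7% with Ex-4, against 95.5% and 96.0% in the longest.

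The same contrast in WT cells uses 2 other libraries, and it ran along similar peaks. Over the 92760 tested peaks called in all 4 stimulated libraries, the FSK minus Ex-4 differences of the genotypes had a Pearson correlation of 0.80 and a Spearman correlation of 0.73. This is a description across peaks, which are not independent and share their length and base composition. Over all 146906 tested peaks, zeros included, Pearson's value was 0.58. The spread of the differences was smaller in Med14 S983A cells, with an SD across peaks of 0.47 against 0.55 in WT.

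FSK-higher peaks of the mutant were past 2-fold in WT more often than its Ex-4-higher peaks were, and the share over all peaks was also larger on the FSK side. Of the 4384 FSK-higher peaks called in both mutant libraries, 3835 (87.5%) were FSK-higher in WT, against 11.5% of all peaks called in both. Of the 2405 Ex-4-higher peaks, 807 (33.6%) were Ex-4-higher in WT, against 2.71%, and 92.1% lay below 0 there. Among all tested peaks WT had 17.8% FSK-higher and 5.1% Ex-4-higher peaks, and among the 92760 it had 5265 (5.68%) and 1525 (1.64%). Over these 92760, Med14 S983A had 2602 FSK-higher and 2135 Ex-4-higher peaks. The 2160 FSK-higher peaks common to the genotypes made up 83.0% of the mutant list and 41.0% of the WT list. The 677 Ex-4-higher peaks in common made up 31.7% and 44.4%. The WT FSK library was also much deeper than WT Ex-4, with 251100000 against 158900000 reads in peaks, and its part in the longer WT list was not tested.

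**Figure D3:**
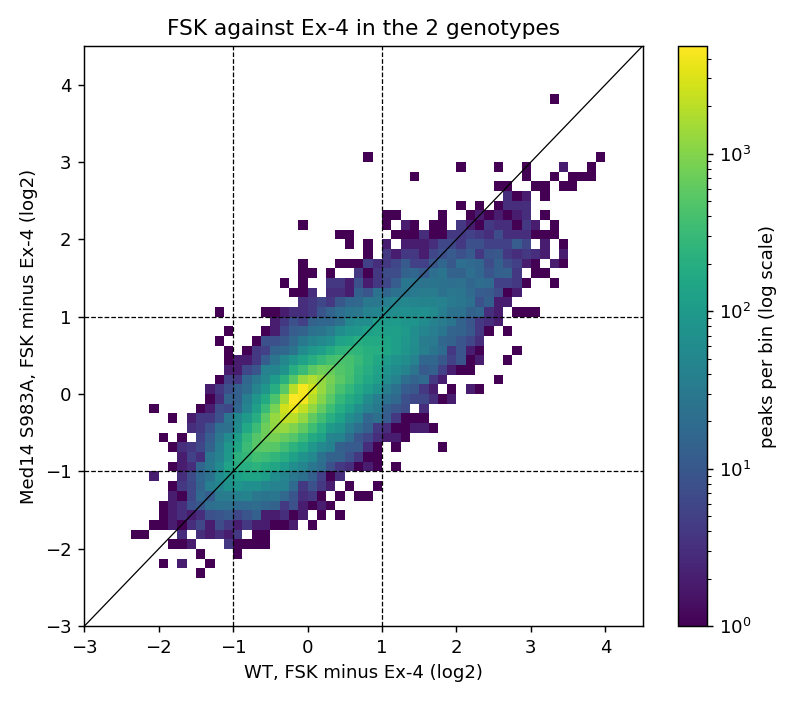
FSK minus Ex-4 difference in WT (x axis) and in Med14 S983A (y axis), on the log2(FPKM + 0.5) scale, for the 92760 tested peaks called in all 4 stimulated libraries. Colour gives peaks per bin on a log scale, dashed lines mark 2-fold in each genotype and the solid line equal differences. The cloud follows the diagonal with a Pearson correlation of 0.80, and its right arm lies mostly below the line.

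The right arm below the diagonal is where FSK exceeded Ex-4 by more in WT than in the mutant. Peaks were next chosen on the mean of both genotypes, which is not a neutral choice. WT had the wider spread of differences, with an SD of 0.55 against 0.47, and more FSK-higher peaks. Such a choice can favour peaks with a larger WT difference on the FSK side. Its part in the gaps below was not tested. In this way 3619 of the 92760 were FSK-higher. Their median difference was 1.12 in Med14 S983A and 1.59 in WT, and it was smaller in the mutant in 85.9% of them. Their median signal was 1.28 FPKM in Med14 S983A CON, 2.82 FPKM with Ex-4 and 7.17 FPKM with FSK. In WT the corresponding values were 1.53, 2.52 and 9.61 FPKM. The smaller gap in the mutant thus went with a lower FSK level and an Ex-4 level that was slightly higher than in WT. For 1313 Ex-4-higher peaks chosen in the same way the median difference was -1.18 in Med14 S983A and -1.12 in WT, and the gap was smaller in the mutant in 43.1%. That near-equality did not extend to all tested peaks, zeros included. Chosen on the mean there, 11434 Ex-4-higher peaks had medians of -2.14 in Med14 S983A and -0.99 in WT, with the gap smaller in the mutant in 33.8%, and 25549 FSK-higher peaks had 2.04 and 2.99, with 68.4%. With 1 library per condition, the genotype difference itself was not tested.

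Peaks chosen by their WT difference, among those called in all 4 stimulated libraries, showed the mutant levels without a choice on mutant differences. Over the 5265 FSK-higher peaks of WT the mutant medians were 1.61 FPKM in CON, 3.08 FPKM with Ex-4 and 6.48 FPKM with FSK. In mutant cells 92.7% of these peaks had the order CON, Ex-4, FSK, against 20.6% of peaks under 2-fold in WT. The choice required a mutant Ex-4 call but no CON call. Mutant CON was listed at 0 in 30.7% of the 5265, against 3.09% of peaks under 2-fold in WT. In those peaks CON below Ex-4 was fixed by the choice. Over the 1525 Ex-4-higher peaks of WT the mutant medians were 5.73 FPKM in CON, 4.74 FPKM with Ex-4 and 2.15 FPKM with FSK. In 97.0% of them FSK was the lowest of the 3 mutant libraries, against 56.0% of peaks under 2-fold in WT.

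Single peaks are given by their rn6 positions as deposited, with exact Poisson intervals at 95% that cover counting error only. The annotation and sequence of rn6 were not used here, so the genes around these peaks were not analysed here. The largest FSK-over-Ex-4 difference among peaks called in both libraries was at chr1:143022274-143022723. It had 17.7 FPKM (16.8 to 18.7) with FSK, 0.848 FPKM (0.640 to 1.10) with Ex-4 and was listed at 0 in Med14 S983A CON. In WT it was listed at 0 in CON and had 1.54 FPKM with Ex-4 and 19.1 FPKM with FSK. FSK was 20.9 times Ex-4 in the mutant, a difference of 3.76. FSK was far above Ex-4 in both genotypes, and the Ex-4 level was lower in the mutant than in WT.

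The next 3 were listed at 0 in both CON libraries and in WT Ex-4. At chr5:172796721-172797383 the mutant had 9.61 FPKM with FSK and 0.380 FPKM with Ex-4, and WT FSK had 7.90 FPKM. At chr5:122413092-122413507 the mutant values were 15.3 and 1.08 FPKM, and WT FSK had 8.99 FPKM. At chr10:91059401-91059744 they were 13.2 and 0.931 FPKM, and WT FSK had 6.75 FPKM. In each of the 3, Ex-4 was called at a low level in mutant cells and not called in WT.

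The remaining 2 of the 6 differed from these in their baseline or their mutant level. At chr7:12440234-12441404, a peak of 1170 bp, the mutant had 2.27 FPKM in CON, 2.14 FPKM with Ex-4 and 24.3 FPKM with FSK, so Ex-4 was at the CON level. WT FSK had 19.0 FPKM there and the other WT libraries listed it at 0. At chr9:82451772-82452330 the mutant had 22.7 FPKM with FSK and 2.16 FPKM with Ex-4, and WT FSK had 6.53 FPKM, well below the mutant value.

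The 6 largest differences toward Ex-4 were all called in Med14 S983A CON, and in each the FSK level was below the CON level. The largest was at chr1:6633935-6634256, with 16.1 FPKM in CON, 16.3 FPKM (15.2 to 17.5) with Ex-4 and 2.94 FPKM (2.50 to 3.45) with FSK, a difference of -2.29. WT had 24.96, 22.7 and 7.75 FPKM in CON, Ex-4 and FSK. FSK was thus the lowest library in both genotypes. At chr4:135145232-135145710 the mutant had 8.43, 5.80 and 0.924 FPKM in CON, Ex-4 and FSK, and WT had 22.8, 19.2 and 5.83 FPKM. At chr7:48220814-48221253 the mutant had 6.33, 6.38 and 1.06 FPKM. At chr2:134810009-134810534, the most isolated of the 6 with its nearest peak 33078 bp away, it had 4.16, 3.86 and 0.491 FPKM. In chr3:3934049-3934517 Ex-4 was also below CON, with 22.5 FPKM in CON, 14.9 FPKM with Ex-4 and 3.07 FPKM with FSK, and WT FSK listed it at 0.

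Peaks with a large difference in both genotypes were taken from those called in all 6 libraries. On the FSK side, chr13:34278765-34279747 had 1.08 FPKM in Med14 S983A CON, 2.01 FPKM with Ex-4 and 18.1 FPKM with FSK. WT had 1.41, 1.92 and 26.3 FPKM there. The mutant difference was 2.89 and the WT difference 3.47. At chr19:41520300-41521165 FSK reached 18.0 FPKM in the mutant and 12.4 FPKM in WT, and Ex-4 was at 2.03 and 1.11 FPKM. At chr18:80740394-80740965 FSK reached 21.2 and 15.4 FPKM, with Ex-4 at 2.50 and 0.706 FPKM. In these 2 peaks the mutant was above WT under both agents, which differs from the genome-wide lean toward a lower FSK level. The other 2, chr7:132885985-132886573 and chr20:9201665-9202144, had 16.3 and 27.2 FPKM with FSK in the mutant and 18.9 and 28.9 FPKM in WT. Their Ex-4 levels were 2.16 and 4.51 FPKM in the mutant and 1.75 and 4.23 FPKM in WT.

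On the Ex-4 side, chr3:172097543-172098250 had 8.82, 7.94 and 1.29 FPKM in mutant CON, Ex-4 and FSK, and 5.58, 7.69 and 1.70 FPKM in WT. The other 4 were 2 peaks on the X chromosome, chrX:109930863-109931343 and chrX:68971386-68971863, and the peaks chr6:103330092-103330447 and chr14:31409198-31409598. FSK was the lowest library of its genotype in all 5. Both X-chromosome peaks had more signal in mutant CON than in WT CON, with 21.1 against 8.87 FPKM and 25.5 against 19.0 FPKM. In all 4 the CON level exceeded the Ex-4 level in each genotype.

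**Figure D4:**
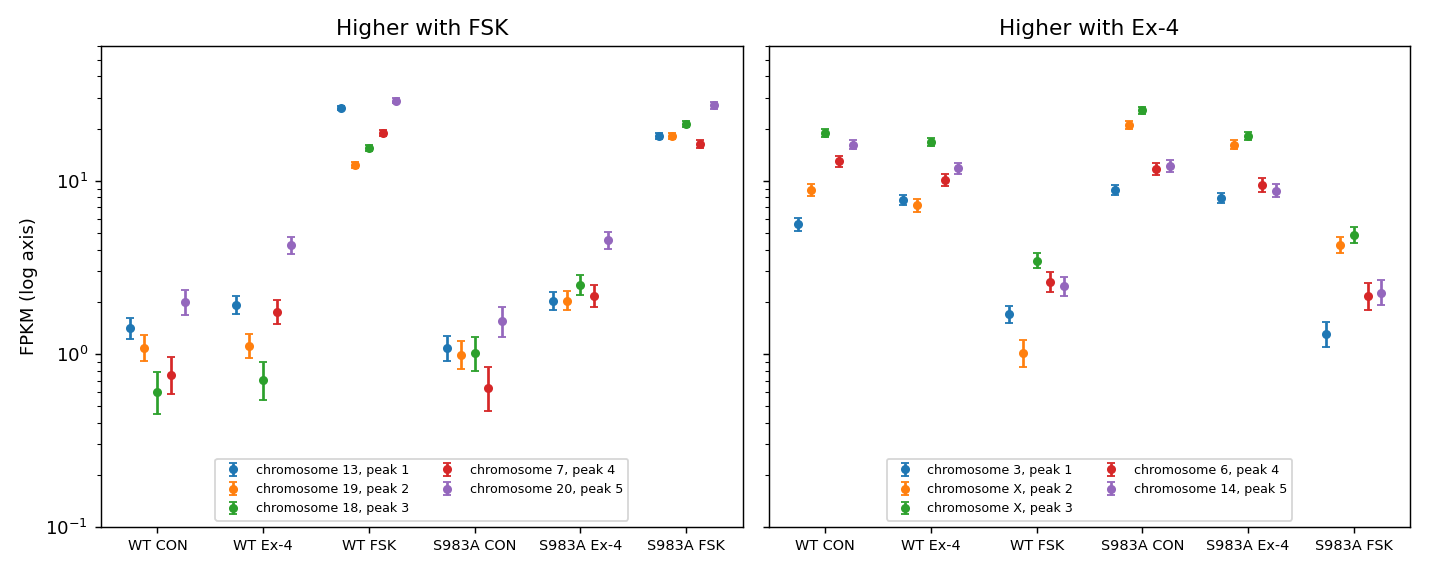
FPKM on a log axis of the 5 peaks per direction with the largest difference shared by the genotypes, in each of the 6 libraries (S983A stands for Med14 S983A). Points are single libraries and bars are exact Poisson 95% intervals of the reads. On the left both FSK libraries stand above the other 4, and Ex-4 is above CON, by less than the counting intervals for the chromosome 19 and 18 peaks in WT; on the right both FSK libraries stand below them.

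The largest values beside a 0 were mostly short peaks, and several bordered a peak that both libraries had. With FSK only, chr1:221205830-221205990 had 64.7 FPKM, chr1:221201363-221201521 had 60.2 FPKM, chr20:48786641-48786736 had 54.3 FPKM and chr7:12414991-12415102 had 48.9 FPKM. Their lengths ran from 95 to 160 bp. With Ex-4 only, chr20:56193528-56193630 had 54.0 FPKM, chr1:221203019-221203376 had 46.8 FPKM, chr9:82158504-82158682 had 45.7 FPKM and chr7:12404506-12404660 had 35.6 FPKM. All 4 of the latter, 102 to 357 bp long, were called in Med14 S983A CON too, at 40.4 to 60.7 FPKM. No fold is given against a value listed at 0.

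Among FSK-only peaks with at least 20 FPKM, 122 of 263 (46.4%) had a neighbour within 500 bp that Ex-4 called, against 17.3% of all tested peaks. Among Ex-4-only peaks of that level, 24 of 51 (47.1%) had a neighbour that FSK called, against 18.5%. Of FSK-only and Ex-4-only peaks of any level, 18.4% and 16.4% had such a neighbour, so it was the strong ones that had it more often. When merged peaks within 500 bp were combined, an alternative chosen after the data were seen, 14807 regions were FSK-higher and 9706 Ex-4-higher of 129599. The split of 60.4% toward FSK was close to that of single peaks.

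Both kinds of call occurred in a single stretch of chromosome 1, chosen after its values were seen. Between chr1:221192230-221193177 and chr1:221199787-221200977, 9 neighbouring merged peaks were called in all 3 mutant libraries. Their FPKM ran from 39.4 to 81.2 with FSK, from 18.5 to 34.4 with Ex-4 and from 8.75 to 26.9 in CON, so the FSK range lay above the others. In WT FSK the same peaks ran from 0 to 15.4 FPKM. Next to them, chr1:221201363-221201521 was called with FSK and not with Ex-4 or in CON. Beyond it, at chr1:221203666-221204977, the mutant had 61.8, 65.6 and 59.7 FPKM in CON, Ex-4 and FSK, and at chr1:221205159-221205719 it had 99.4, 104.6 and 109.5 FPKM. The latter peaks were alike under both agents. Yet 2 peaks beside them, chr1:221203019-221203376 of 357 bp and chr1:221205830-221205990 of 160 bp, were listed for a single agent.

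FSK-higher peaks also lay near each other. Of 2555 FSK-higher peaks whose next peak called in both libraries was within 10 kb, 296 (11.6%) had an FSK-higher one as that neighbour, against 4.58% over all such pairs. For Ex-4-higher peaks it was 66 of 1011 (6.53%) against 1.73%. The chromosome with the highest median difference was 10, at 0.05, followed by 12, at 0.03, and the lowest was X, at -0.17. Chromosomes 10 and 12 had few Ex-4-higher peaks, 0.657% and 0.704%, and X had 4.16%. Across 21 chromosomes the medians of the peaks called in all 4 stimulated libraries had a Pearson correlation of 0.85 and a Spearman correlation of 0.79 between the genotypes, and the mutant medians of peaks called in both libraries had a Spearman correlation of 0.74 with peaks per Mb.

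Over 520 runs of 200 neighbouring peaks called in both libraries, the median difference went with how densely the peaks lay. Run medians lay between -0.36 and 0.58, with 132 above 0 and 388 below. Spearman's value between a run's median and the length it spanned was -0.76. The 130 densest runs, spanning at most 3.09 Mb, had a median of 0.03, and the 130 sparsest, spanning at least 6.32 Mb, had -0.18. In WT the corresponding medians were -0.05 and -0.16, which is a smaller step in the same direction. Peaks in dense runs were also stronger, at 8.11 against 5.57 FPKM, and the part of level in this gradient was not tested.

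**Figure D5:**
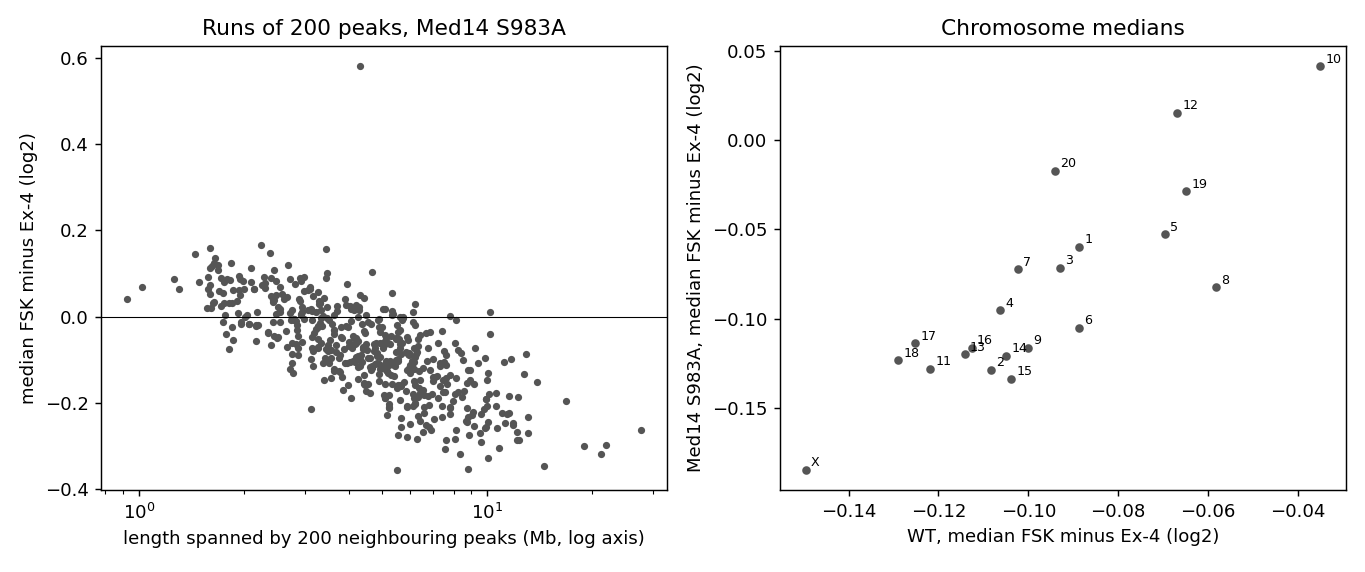
Left, median FSK minus Ex-4 difference (log2) in Med14 S983A of 520 runs of 200 neighbouring peaks against the length each run spans in Mb on a log axis, 1 point per run. Right, chromosome medians of the difference in WT and Med14 S983A over peaks called in all 4 stimulated libraries, 1 labelled point per chromosome. Run medians decline as runs get longer, with 1 point apart at 0.58, and chromosome 10 and X are at opposite ends in both genotypes.

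The single run that stood 1.5-fold from the median of all peaks was chr1:48598936-52906860, with a median of 0.58 in Med14 S983A and 0.96 in WT. In it 61 of 200 peaks were FSK-higher and 1 was Ex-4-higher. Windows of 20 neighbouring peaks, an added and finer division, placed most of it within 316 kb. Over the 100 peaks of chr1:52590395-52906860 the median difference was 1.01, 51 were FSK-higher and none was Ex-4-higher. The median signal there was 0 FPKM in Med14 S983A CON, 6.62 FPKM with Ex-4 and 13.8 FPKM with FSK, and in WT it was 0, 3.29 and 12.6 FPKM. The median peak of this stretch was thus not called in untreated cells of either genotype, and its signal was higher with FSK than with Ex-4 in both.

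Of 5318 such windows, 22 had a median at least 1.5-fold toward FSK, and they formed 17 separate stretches. In all 22 the WT median was above 0, and in 13 it was past 1.5-fold, which 24 of all windows (0.451%) were in WT. Besides the chromosome 1 stretch above, the largest medians were chr17:66218105-66512505 at 1.17, chr9:111028100-111129579 at 1.12, chr1:221156956-221200977 at 1.07, chr20:10395988-10708296 at 0.99 and chr1:128793891-129099569 at 0.89. On chromosome 17 the mutant medians were 1.31, 2.04 and 7.14 FPKM in CON, Ex-4 and FSK. On chromosome 20 they were 1.56, 4.21 and 13.7 FPKM, and in chr1:128793891-129099569 they were 0, 3.32 and 6.51 FPKM.

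Toward Ex-4, 12 windows passed 1.5-fold, and no 2 of them adjoined. The lowest median was -0.84 at chr11:21171364-23466161, where mutant medians were 5.88 FPKM in CON, 5.46 FPKM with Ex-4 and 2.86 FPKM with FSK. The WT median was below 0 in all 12, but so was the WT median over all windows, at -0.10. WT passed 1.5-fold in none of the 12, and its median over them was -0.38. The FSK stretches, of 20 to 100 peaks, spanned 44.0 to 1049 kb and the Ex-4 windows, of 20 peaks each, 455 to 4733 kb, so the ranges overlapped.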

How the data were processed

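ATAC-seq libraries of INS-1 cells, 1 for each of 6 conditions, were used. Per the study's methods, the authors' reads were trimmed (Trim Galore) and aligned to rn6 (bwa mem). Duplicates, mitochondrial reads and those of low mapping quality were removed (samtools) before peaks were called (macs2). The deposited values are FPKM that the authors obtained with HOMER for merged peaks, relative to reads in each library's own peaks. Whether reads were shifted for the Tn5 cut site before counting, and whether replicates were pooled, the sources do not say.

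The 3 mitochondrial peaks were left out. Peaks averaging 1 FPKM or more over the 6 libraries were compared on the log2(FPKM + 0.5) scale, and 2-fold was the size rule, with no test. Reads were recovered from the steps of low FPKM: 6000 low values per library were checked, and all were whole multiples of a step to within 0.15. The values do not show whether a step is a read or a read end. Exact Poisson intervals at 95% cover counting error only. Calls were taken from the peak lists given for each merged peak. Positions are as the files list them, and lengths are end minus start.

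Peaks named were the 6 with the largest difference each way among those called in both libraries, the 5 each way with the largest smaller-of-the-genotypes difference among those called in all 6, and the 4 each way with the highest FPKM beside a 0. Stretches of neighbouring peaks, and the peaks printed inside them, were chosen after their values were seen. Members, lists and limits were chosen with earlier results of these data known. Gene lists and cell type markers needed an annotation of rn6 and were not analysed here. The calculations were tested on simulated data. The tools were matplotlib 3.10.9, scipy 1.17.1, pandas 2.3.3, numpy 2.4.6 and Python 3.11.15.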

Additional observations from a re-analysis of the deposited data

Results flagged for a closer look

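Some peaks differed in opposite directions in the genotypes, by at least 2-fold in each. Of all tested peaks, 164 were FSK-higher in Med14 S983A and Ex-4-higher in WT, and 612 were Ex-4-higher in Med14 S983A and FSK-higher in WT. The 164 were 0.899% of the FSK-higher peaks, while 5.1% of all tested peaks were Ex-4-higher in WT. The 612 were 5.23% of the Ex-4-higher peaks, while 17.8% of all tested peaks were FSK-higher in WT. Both kinds were thus below the share over all tested peaks. Nearly all of these opposite peaks were listed at 0 in a stimulated library. Among peaks called in the 4 stimulated libraries there was 1 of the former kind and 0 of the latter. That peak, chr3:122153108-122153883, had 1.41 FPKM with FSK and 0.395 FPKM with Ex-4 in Med14 S983A, and 0.550 and 1.93 FPKM in WT. It rests on 178 and 45 reads in the mutant. These differences between genotypes were not tested, as no condition was replicated.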

How the results depend on the processing

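No paired analysis was possible because no condition was replicated, and no replicate was left out for the same reason. The split of changed peaks fell below an even split under quantile normalization and in peaks called in all 6 libraries. 
The FSK share of changed peaks, 60.9%, became 59.1% with pseudocount 0.1, 63.5% with pseudocount 1, 64.2% without a filter, 55.1% at a mean of 3 FPKM, 70.3% at a mean of 1 FPKM over the 2 libraries, 63.1% after centring, 47.8% after quantile normalization, 72.1% with 0 replaced by the 5th percentile, 64.6% in peaks called in both libraries, 39.5% in peaks called in all 6, 53.6% at 1.5-fold and 65.1% at 4-fold. The number of FSK-higher peaks, 18247, became 38218 without a filter, 4820 at a mean of 3 FPKM, 28085 at a mean of 1 FPKM over the 2 libraries, 4384 in peaks called in both libraries and 1379 in peaks called in all 6. The number of Ex-4-higher peaks, 11701, became 21267 without a filter, 3925 at a mean of 3 FPKM, 18051 after quantile normalization, 5547 with 0 replaced by the 5th percentile, 2405 in peaks called in both libraries, 2114 in peaks called in all 6, 20845 at 1.5-fold and 7025 at 4-fold. The median difference of peaks called in both libraries, -0.07, became -0.0714 with pseudocount 0.1, -0.0631 with pseudocount 1, -0.0637 without a filter, -0.0791 at a mean of 3 FPKM, -0.0632 at a mean of 1 FPKM over the 2 libraries, 0 after centring, -0.135 after quantile normalization and -0.0950 in peaks called in all 6. The share of FSK-higher peaks that were FSK-higher in WT, 77.0%, became 57.3% without a filter, 78.7% at a mean of 3 FPKM, 64.1% at a mean of 1 FPKM over the 2 libraries, 78.3% after centring, 75.5% after quantile normalization, 75.3% with 0 replaced by the 5th percentile, 87.5% in peaks called in both libraries, 80.9% at 1.5-fold, 72.4% at 4-fold and 77.9% with neighbours within 500 bp combined. The share of Ex-4-higher peaks that were Ex-4-higher in WT, 26.0%, became 29.9% with pseudocount 0.1, 22.7% with pseudocount 1, 18.2% without a filter, 27.6% at a mean of 3 FPKM, 20.03% at a mean of 1 FPKM over the 2 libraries, 22.6% after centring, 48.4% after quantile normalization, 22.4% with 0 replaced by the 5th percentile, 33.6% in peaks called in both libraries, 31.9% in peaks called in all 6, 46.3% at 1.5-fold and 16.7% at 4-fold. The WT share over all tested peaks moved too, from 17.8% to 3.56% on the FSK side in peaks called in all 6, and from 5.1% to 14.1% on the Ex-4 side after quantile normalization. Why these values moved was not tested, except that the smaller sets of peaks hold fewer peaks by construction. Combining neighbours was chosen after the data were seen. Counting precision was high for most peaks, and the spread between libraries of a condition is not known.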
